A study of Rattus norvegicus with 4 samples.

Results

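Cyclic nucleotide phosphodiesterases were examined in RNA-seq libraries of INS-1 832/13 cells in which Tbk1, the gene of the kinase TBK1, was silenced with siRNA. The 10 members, Pde3a, Pde3b, Pde4a, Pde4b, Pde4d, Pde7a, Pde8a, Pde8b, Pde10a and Pde1c, were taken by gene symbol from a table of 15172 rat genes, and all 10 were listed there and passed the filter on low counts. INS-1 832/13 is a clonal rat insulinoma line that secretes insulin, so the libraries describe a single tumor-derived cell line and not islets. The siTbk1 group (2 samples, replicates 2 and 3) received a pool of siRNAs against Tbk1, and the siScramble group (2 samples, replicates 2 and 3) received a negative control siRNA that targets no gene. Both groups were transfected with the DharmaFECT reagent for 36 h and had no other labelled difference. The study asked how TBK1 bears on β-cell replication and linked TBK1 to PDE3 and cAMP, and the comparison here asked which phosphodiesterase mRNAs differed between the groups.

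Phosphodiesterases cleave the second messengers cAMP and cGMP to their inactive monophosphates. In β-cells, cAMP made downstream of receptors such as the GLP-1 receptor acts through PKA and EPAC to amplify insulin secretion triggered by glucose, and phosphodiesterases set how far and how long that signal spreads. The families differ in substrate and control. PDE3 enzymes cleave cAMP and are held back by cGMP, and PDE4, PDE7 and PDE8 enzymes are specific for cAMP. PDE10 is among the families that cleave both nucleotides, and PDE1 enzymes are switched on by calcium and calmodulin.

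The libraries held 47443061 and 38811919 counts for siScramble 2 and 3 and 47759013 and 38428926 for siTbk1 2 and 3. Levels are given in CPM, the count scaled to a library total of 1000000 after adjusting for library size and composition, and 3 counts corresponded to 0.0625 to 0.0795 CPM. Tbk1 itself stood at 53.7 and 52.5 CPM in the siScramble samples and at 11.8 and 13.3 CPM in the siTbk1 samples, a log2 fold change of −2.08 (SE 0.076, n = 2 per group, adjusted p = 3.7e-08, edgeR quasi-likelihood test, Benjamini-Hochberg adjusted over all tested genes). The targeted mRNA was thus lower in both libraries labelled siTbk1. Of 12 β-cell markers 11 were listed, with summed levels of 13748 and 14430 CPM in siScramble against 10893 and 9640 CPM in siTbk1, and Ins1 was the largest part of that sum. The markers went both ways. By the adjusted p alone 4 rose (Iapp, Pcsk1, Nkx6-1 and Slc30a8, by 0.15 to 0.38 on the log2 scale) and 5 fell, of which Ins1 and Ins2 also passed the 1.5-fold limit. Of 13 markers of other islet and pancreas cells 2 were listed, Gcg and Acta2, and Gcg (glucagon) made up nearly all of their sum of 1389 and 1313 CPM in siScramble against 815 and 878 CPM in siTbk1. Acta2 had 6 and 1 counts in siScramble and 2 and 3 in siTbk1, and Sst, Ppy, Prss1 and Ptprc were among the markers with no row. The part of these marker shifts in the values below was not tested.

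Among the phosphodiesterase members, Pde4a and Pde8b fell past the study's limits of adjusted p under 0.05 with a change of 1.5-fold or more, and 0 rose past them. Over all 13953 genes tested, 4.81% rose and 6.18% fell past the same limits, so 2 of 10 lower members is a small count to read against that background. By adjusted p alone, Pde3b, Pde4d and Pde8a rose and Pde4a, Pde4b, Pde7a, Pde8b and Pde10a fell, that is 3 and 5 of 10, where 24.4% of all tested genes rose and 24.8% fell. Pde3a and Pde1c did not pass in either direction. The median log2 fold change of the 10 members was −0.21 against 0.0071 over all genes tested. In bulk libraries, fewer cells holding an mRNA and less mRNA per cell cannot be told apart. The files give no transcript lengths, so levels are compared between samples and not between genes.

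**Figure D1:**
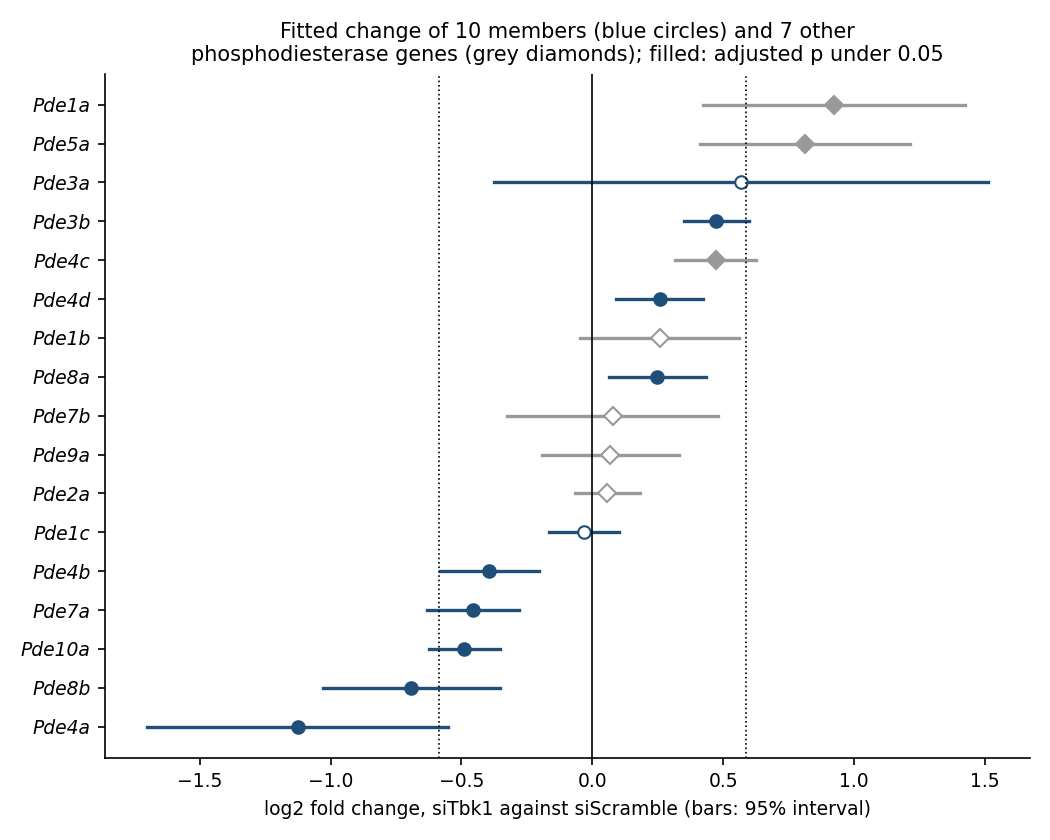
Log2 fold change, siTbk1 against siScramble, of each of the 10 phosphodiesterase members (blue circles) and of 7 other phosphodiesterase genes (grey diamonds). Bars are the 95% confidence interval of edgeR's quasi-likelihood fit (2 samples per group), and lines mark 0 and the 1.5-fold limit. Filled symbols have an adjusted p under 0.05. Among the members, Pde4a and Pde8b lie past the lower limit and Pde3b lies highest of those with an interval above 0. The interval of Pde3a spans −0.38 to 1.51. Of the other genes, Pde1a and Pde5a have intervals above 0 and lie above Pde3b.

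Pde3b encodes the membrane-bound PDE3 enzyme that insulin and IGF-1 activate and that limits cAMP in β-cells. The gene lies at chr1:183892841-184078072 on the plus strand of rn6, as the file lists it. It held 9664 and 7426 counts in the siScramble samples and 12294 and 10512 in the siTbk1 samples, which were 201 and 187 CPM against 261 and 279 CPM. Both siTbk1 samples were above both siScramble samples and the groups did not overlap. The group means were 194 ± 9.72 and 269.9 ± 12.1 CPM (SD, n = 2), and the log2 fold change was 0.47 (SE 0.057, 95% confidence interval 0.35 to 0.60), a 1.39-fold difference with an adjusted p of 5e-05 by edgeR. Pde3b therefore rose by the adjusted p and stayed under the 1.5-fold limit, with the upper bound of its fold interval at 1.51.

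Pde3a, the PDE3 enzyme best known from heart, platelets and oocytes, is listed at chr4:175431904-175700239 (plus strand) and was near the lower end of what these libraries could measure. It held 13 and 32 counts in the siScramble samples and 42 and 24 in the siTbk1 samples, or 0.271 and 0.808 CPM against 0.893 and 0.636 CPM. The siTbk1 3 value lay between the 2 siScramble values, so the groups overlapped. The exact Poisson 95% interval of the lowest count ran from 6.92 to 22.2 and that of the highest from 30.3 to 56.8, and these cover counting error only. The log2 fold change was 0.57 (SE 0.43, 95% confidence interval −0.38 to 1.51, adjusted p = 0.30 by edgeR), and no difference was detectable at this depth. The value rested on the siScramble pair. Without siScramble 2 the log2 fold change was −0.062 (adjusted p = 0.92), and without siScramble 3 it was 1.504 (adjusted p = 0.017).

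**Figure D2:**
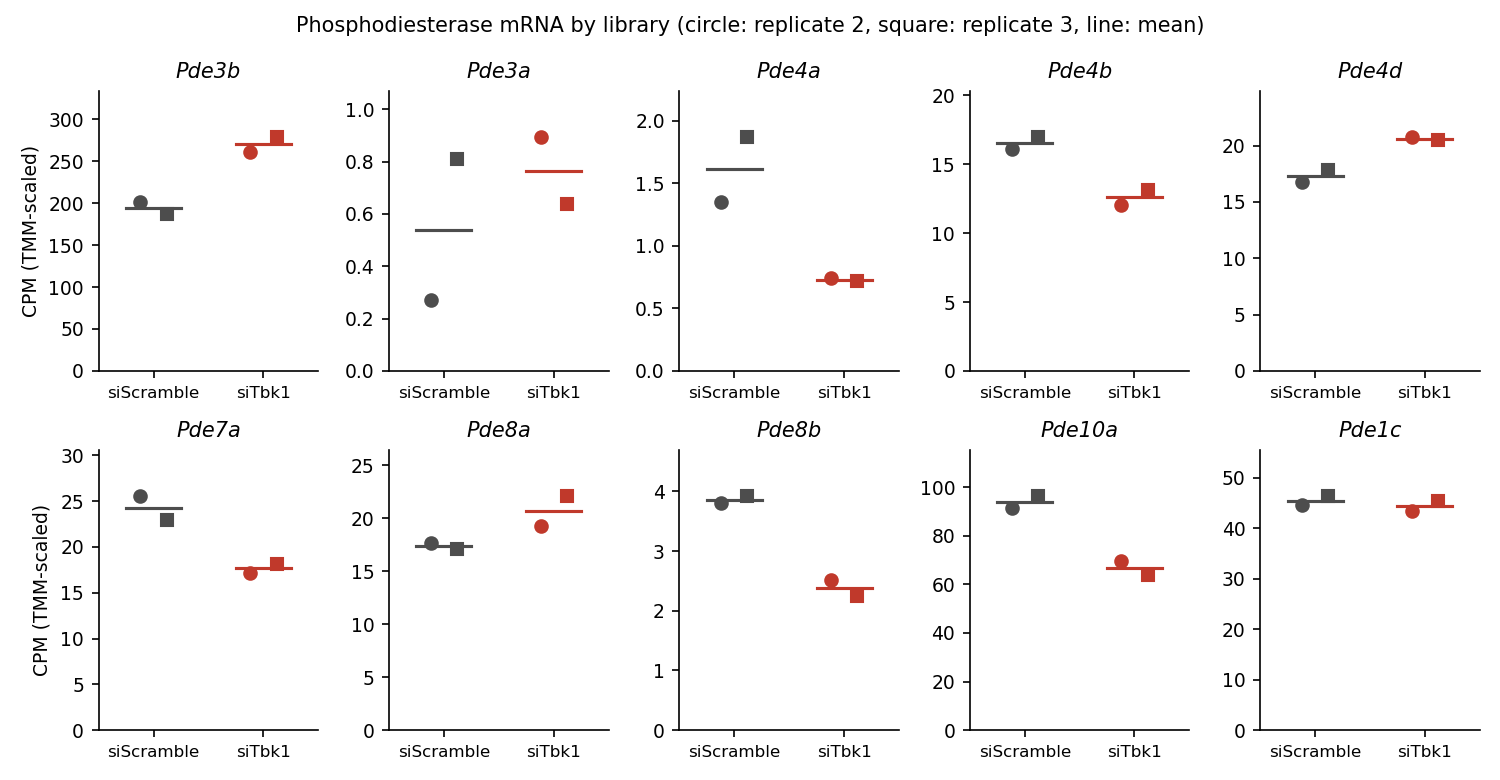
Level of each phosphodiesterase member in the 4 libraries, in CPM, with 1 panel per gene, 1 point per library and a bar at each group's mean. Both siTbk1 points lie above both siScramble points for Pde3b, Pde4d and Pde8a and below them for Pde4a, Pde4b, Pde7a, Pde8b and Pde10a. The groups overlap for Pde3a and Pde1c. The share of all tested genes whose groups do not overlap is not given, so these separations, here and in the text, are a description.

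The PDE4 members are cAMP-specific enzymes, the targets of rolipram, and PKA activates their long forms as feedback. Their mRNAs moved in different directions. Pde4a, at chr8:22189600-22233749 (plus strand), stood at 1.35 and 1.87 CPM in siScramble (65 and 74 counts) and at 0.744 and 0.715 CPM in siTbk1 (35 and 27 counts). Both siTbk1 values were below both siScramble values. The log2 fold change of −1.13 (SE 0.26, 95% confidence interval −1.70 to −0.55) left 0.458 of the control level, with an adjusted p of 0.0038 by edgeR, and this was the lowest log2 fold change of the 10 members.

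Pde4b, the form best known for its part in inflammatory responses of immune cells, is listed at chr5:121952977-122136815 (plus strand) and stood at 16.1 and 17.0 CPM in siScramble and 12.0 and 13.2 CPM in siTbk1. The groups did not overlap. It fell by 0.39 on the log2 scale (SE 0.087, 95% confidence interval −0.58 to −0.20, adjusted p = 0.0027 by edgeR), short of the 1.5-fold limit. Pde4d went the other way, from 16.7 and 17.8 CPM to 20.7 and 20.5 CPM. It is the PDE4 form with many promoters, and its listed span of 910 kb, chr2:40554146-41464265 (plus strand), was the longest of the members. Its log2 fold change of 0.26 (SE 0.077, 95% confidence interval 0.09 to 0.42) had an adjusted p of 0.015 by edgeR, and its interval lay wholly above that of Pde4b. Pde4d did not pass the adjusted p with DESeq2 (adjusted p = 0.060). Nor did it without siScramble 2 or without siTbk1 2 (log2 fold changes 0.21 and 0.24).

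Pde7a encodes a high-affinity cAMP-specific enzyme that rolipram does not inhibit, and the file lists it at chr2:104045811-104134102 (minus strand). It stood at 25.5 and 22.9 CPM in siScramble and at 17.2 and 18.2 CPM in siTbk1, with both siTbk1 samples the lower. It fell by 0.46 on the log2 scale (SE 0.081, 95% confidence interval −0.63 to −0.28, adjusted p = 0.00062 by edgeR), again short of the 1.5-fold limit.

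Pde8a and Pde8b encode the PDE8 enzymes, which have the highest affinity for cAMP and are not inhibited by IBMX. PDE8B is known from endocrine tissues such as the adrenal and the thyroid. In rn6 Pde8a is listed at chr1:143036218-143159434 (plus strand) and Pde8b at chr2:24719976-24923129 (minus strand). Pde8b stood at 3.81 and 3.91 CPM in siScramble (183 and 155 counts) and at 2.51 and 2.25 CPM in siTbk1 (118 and 85 counts), and the groups did not overlap. It fell by 0.69 on the log2 scale (SE 0.16, 95% confidence interval −1.03 to −0.35), to 0.619 of the control level, with an adjusted p of 0.0029 by edgeR. Pde8a stood at 17.6 and 17.1 CPM in siScramble and at 19.3 and 22.0 CPM in siTbk1. The siTbk1 samples were the higher, by 0.25 on the log2 scale (SE 0.085, 95% confidence interval 0.06 to 0.43, adjusted p = 0.029 by edgeR). The intervals of the PDE8 pair did not overlap. Pde8a did not pass the adjusted p with DESeq2 (adjusted p = 0.083) or with library size alone as the scale (adjusted p = 0.071 by edgeR). Nor did it without siScramble 3 or without siTbk1 3 (log2 fold changes 0.23 and 0.15).

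The PDE8 pair also differed in the sequence before its start sites. The windows below are RefSeq promoters of the GRCr8 assembly, 250 bases before to 50 bases after a listed start, printed 5′ to 3′ on the gene's strand to set the PDE8 pair and Pde10a side by side. Capitals mark the core of the cAMP response element, TGACG or its reverse complement CGTCA, searched on both strands. Pde8a is at chr1:144575219-144575518 (plus strand), Pde8b at chr2:28116002-28116301 (minus strand) and the second Pde10a window at chr1:54765619-54765918 (minus strand).
Pde8a: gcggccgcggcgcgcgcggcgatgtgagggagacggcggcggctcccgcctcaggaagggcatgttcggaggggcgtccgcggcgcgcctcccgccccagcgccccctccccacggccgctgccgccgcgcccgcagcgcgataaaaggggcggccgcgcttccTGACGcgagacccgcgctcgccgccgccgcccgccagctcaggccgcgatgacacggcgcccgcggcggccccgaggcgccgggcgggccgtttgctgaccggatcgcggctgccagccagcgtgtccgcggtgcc
Pde8b: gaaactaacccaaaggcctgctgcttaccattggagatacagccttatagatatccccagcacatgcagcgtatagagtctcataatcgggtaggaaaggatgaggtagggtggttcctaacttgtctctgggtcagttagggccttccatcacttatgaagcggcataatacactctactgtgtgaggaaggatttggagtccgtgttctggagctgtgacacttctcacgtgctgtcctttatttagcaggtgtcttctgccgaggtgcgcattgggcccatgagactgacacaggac
Pde10a: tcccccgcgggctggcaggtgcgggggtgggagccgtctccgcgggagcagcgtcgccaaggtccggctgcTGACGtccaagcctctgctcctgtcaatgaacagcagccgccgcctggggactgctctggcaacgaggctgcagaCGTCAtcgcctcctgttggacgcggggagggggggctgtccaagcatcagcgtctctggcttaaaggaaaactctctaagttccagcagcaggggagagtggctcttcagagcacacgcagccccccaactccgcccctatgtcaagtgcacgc

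The Pde8a window held 81.0% G and C, with 58 CpG dinucleotides, and lay at percentile 99.3 of the 33469 windows, whereas the Pde8b window held 49.7% and 7 CpG dinucleotides, against a median of 51.7% over all windows. The core began 86 bases before the start in Pde8a, and in the Pde10a window it began 179 bases before the start on the gene's strand and 104 bases before it on the other. Of the members, 8 matched this table with 17 windows, and Pde3b and Pde7a had no entry. The core was in 6 of the 17 windows (35.3%), in Pde4a, Pde4d, Pde8a and Pde10a, and in 21.2% of all windows. Pde4d had 5 of the windows and Pde4a 4, and the share over all windows was not matched for G and C content. Of the 2 Pde10a windows only the printed one held the core. The full element TGACGTCA, which contains the core, was in 0 of the 17 and in 1.83% of all windows. Of the 4 genes with a core, Pde4d and Pde8a rose and Pde4a and Pde10a fell by the adjusted p. The counts are per gene and do not tell which start was used, and a match of letters is not a binding site.

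Pde10a encodes a dual cAMP and cGMP enzyme best known from medium spiny neurons of the striatum, and is listed at chr1:52360296-52544451 (minus strand). It stood at 91.4 and 96.1 CPM in siScramble (4390 and 3807 counts) and at 69.6 and 63.9 CPM in siTbk1 (3274 and 2410 counts). Both siTbk1 values were below both siScramble values. It fell by 0.49 on the log2 scale (SE 0.062, 95% confidence interval −0.62 to −0.35), to 0.712 of the control level, with an adjusted p of 7e-05 by edgeR. Some of its estimated counts were not whole numbers, so part of its reads were shared out among features and the split is uncertain.

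Pde1c encodes the calcium and calmodulin activated enzyme that cleaves both nucleotides and has been studied as a regulator of insulin secretion, and is listed at chr4:86359820-86630544 (minus strand). It stood at 44.6 and 46.3 CPM in siScramble and at 43.5 and 45.3 CPM in siTbk1, and the groups overlapped. The log2 fold change was −0.03 (SE 0.062, adjusted p = 0.69 by edgeR), and its 95% confidence interval of −0.17 to 0.10 left out changes of the size measured for Pde3b and Pde10a. Its counts also held a share of split reads.

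Ratios of 2 members' counts within a library do not depend on how libraries were scaled. Pairs were chosen with the fold changes known, so the ratios are a description, and an exact permutation test of 2 samples against 2 could not go under p = 0.333. The ratio of Pde3b to Pde10a was 2.20 and 1.95 in siScramble and 3.755 and 4.36 in siTbk1, a 1.95-fold change of the ratio. That of Pde3b to Pde7a went from 7.89 and 8.19 to 15.2 and 15.3 (1.90-fold). Against Pde10a and Pde7a, which both fell, the balance thus lay further toward Pde3b in both siTbk1 libraries. Within families, the ratio of Pde4d to Pde4b went from 1.04 and 1.05 to 1.72 and 1.56, and that of Pde8a to Pde8b from 4.62 and 4.37 to 7.68 and 9.79. Against Pde1c, the member nearest to no change, Pde3b went from 4.51 and 4.05 to 6.003 and 6.14. No pair had overlapping groups, and with pairs chosen this way that adds nothing to the fold changes themselves.

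**Figure D3:**
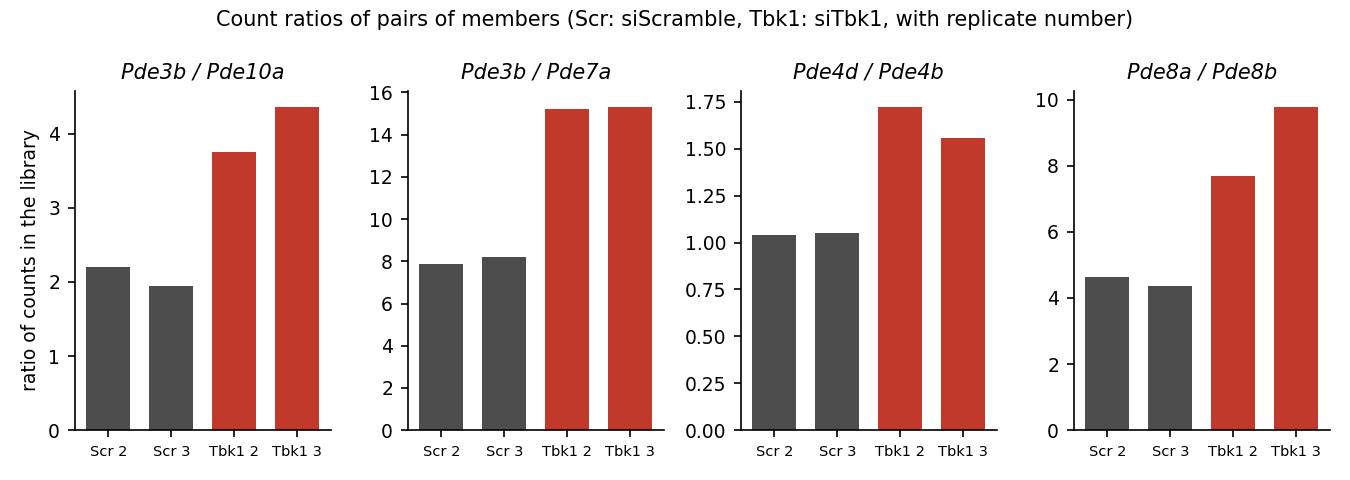
Ratio of the counts of 2 phosphodiesterase members within each library, with 1 panel per pair and 1 bar per library. The pair Pde3b over Pde1c is not drawn. In each pair drawn both siTbk1 bars are higher than both siScramble bars, as in 7.68 and 9.79 against 4.62 and 4.37 for Pde8a over Pde8b.

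Other genes of cyclic nucleotide phosphodiesterases were looked up from a list of 13, of which 7 were listed and tested. Of these, 2 rose and 0 fell past both limits. Over all tested genes 4.81% rose and 6.18% fell past them, so 2 of 7 is a small count to read. Pde1a, another calcium and calmodulin activated enzyme, stood at 1.58 and 1.24 CPM in siScramble and at 2.21 and 3.23 CPM in siTbk1 (log2 fold change 0.92, SE 0.23, adjusted p = 0.0054 by edgeR). Pde5a, the cGMP-specific target of sildenafil, stood at 1.83 and 2.63 CPM in siScramble and at 3.76 and 4.001 CPM in siTbk1 (log2 fold change 0.81, SE 0.18, adjusted p = 0.0031 by edgeR). Neither gene's groups overlapped, and both had few counts, from 49 to 122 for Pde1a and from 88 to 177 for Pde5a. Pde1a had an adjusted p of 0.057 without siTbk1 3, and Pde5a was under the fold limit without siScramble 2 (log2 fold change 0.56).

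Pde4c, the remaining PDE4 gene, rose by the adjusted p from 19.2 and 20.2 CPM to 27.4 and 27.2 CPM (log2 fold change 0.47, SE 0.072, adjusted p = 0.00022 by edgeR), under the fold limit. The PDE4 family thus held 2 genes that rose and 2 that fell by the adjusted p. By the same measure 24.4% of all tested genes rose and 24.8% fell. The other 4 of the 7 listed genes did not pass, with log2 fold changes of 0.26 (Pde1b), 0.08 (Pde7b), 0.07 (Pde9a) and 0.06 (Pde2a). The last 3 changed sign with a correction for gene length. The median of these 7 genes was 0.26. Among genes with a Pde name but no such catalytic subunit, Pde4dip had a log2 fold change of −0.15, Pde6d of 0.26 and Pde12 of 0.11.

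The members are long genes for the most part, and genes that rose were longer than genes that fell. The genomic span the file lists ran from 44.1 kb (Pde4a) to 910 kb (Pde4d) with a median of 185 kb, against a median of 20.1 kb over all tested genes, 36.0 kb over genes that rose and 10.6 kb over genes that fell. Among the 1757 tested genes over 100 kb, 7.91% rose and 3.19% fell past both limits, with a median log2 fold change of 0.12. Of the members, 8 exceeded 100 kb. Past both limits, 0 of these rose and 1 (Pde8b) fell. By the adjusted p alone 3 rose (Pde3b, Pde4d and Pde8a) and 3 fell (Pde4b, Pde8b and Pde10a), where 24.4% of all tested genes rose and 24.8% fell. The shares by the adjusted p alone among genes over 100 kb are not given, so these counts have no like background.

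With the trend of each library over span removed, the higher members moved toward 0 and the lower ones away from it. Pde3b had a log2 fold change of 0.35 (adjusted p = 0.00067 by edgeR), Pde4d of 0.14 (adjusted p = 0.14) and Pde8a of 0.12 (adjusted p = 0.25). Pde4d and Pde8a thus no longer had an adjusted p under 0.05. Pde4b was at −0.52, Pde7a at −0.57, Pde8b at −0.81 and Pde4a at −1.19. Pde10a was at −0.61 (adjusted p = 2.5e-05) and then passed the fold limit. Pde1c was at −0.15 (adjusted p = 0.057). What lies behind the trend was not tested.

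**Figure D4:**
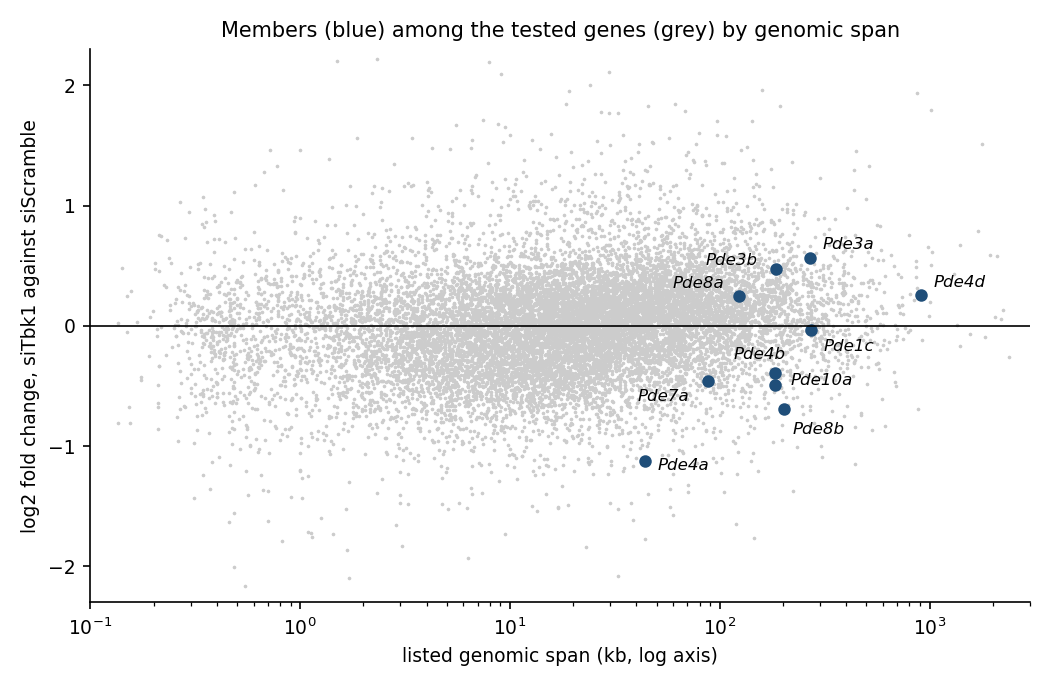
Log2 fold change, siTbk1 against siScramble, over the genomic span that the file lists (kb, log axis), for the tested genes in grey and the 10 phosphodiesterase members in blue, with 27 grey points outside the axes. The members lie toward the long end, from 44.1 kb for Pde4a to 910 kb for Pde4d, on both sides of 0.

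The members act on cAMP pools that other proteins shape, and lists of these were looked up in the same fit. Of 34 anchors and partners of phosphodiesterases 28 were tested, of which 1 rose and 2 fell past both limits (7 and 8 by the adjusted p alone), with a median log2 fold change of 0.08. Cav1, the caveolin that PDE3B associates with in adipocytes, rose from 1.37 and 1.36 CPM to 2.83 and 2.84 CPM (log2 fold change 1.05, SE 0.18, adjusted p = 0.00056 by edgeR). Akap7, a PKA anchor, fell from 4.75 and 4.37 CPM to 1.83 and 2.62 CPM (log2 fold change −1.05, SE 0.18, adjusted p = 0.00047). In both genes the groups did not overlap.

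Of 22 cyclases that make cAMP or cGMP 10 were tested, and 0 rose and 1 fell past both limits (2 and 4 by the adjusted p alone), with a median log2 fold change of −0.02. The lower gene was Adcy5, an adenylyl cyclase, at 2.48 and 2.98 CPM in siScramble against 1.57 and 1.62 CPM in siTbk1 (log2 fold change −0.77, SE 0.19, adjusted p = 0.0049 by edgeR). Of 27 proteins that the nucleotides act on, or their inhibitors, 23 were tested. Past both limits 1 rose and 2 fell (4 and 8 by the adjusted p alone), with a median log2 fold change of −0.14. Atf1, a transcription factor of the CREB family, stood at 109 and 100.2 CPM in siScramble and at 157 and 159 CPM in siTbk1 (log2 fold change 0.59, SE 0.058, adjusted p = 1.2e-05), just past the fold limit, which it missed with library size alone as the scale (0.55). Crtc1 and Crtc3, coactivators of CREB, fell by 0.74 (SE 0.13, adjusted p = 0.00047) and 0.62 (SE 0.13, adjusted p = 0.0016) on the log2 scale. Without siScramble 3 or siTbk1 3, Atf1 (0.53 and 0.58) and Crtc3 (−0.46 and −0.52) missed the fold limit, as Atf1 did with the length correction (0.53). For each list, shares past both limits are to be read against the 4.81% and 6.18% of all tested genes given above. Shares by the adjusted p alone are to be read against the 24.4% that rose and 24.8% that fell.

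The tested genes whose pattern over the 4 libraries was nearest to that of Pde3b were sought among 1687 genes within 1 log2 unit of its mean level, by the Euclidean distance of centred log2 CPM. They were Tm9sf3 (distance 0.0042), AABR07031756.1 (0.0175) and Usp15 (0.0190). Their log2 fold changes were 0.48, 0.48 and 0.46, against 0.47 for Pde3b. The genes were picked by their values in these same 4 libraries, so this closeness follows from the choice and is a description.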

How the data were processed

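RNA of 4 INS-1 832/13 samples was sequenced as stranded mRNA libraries, which the labels place on the same flow cell and lane. The authors deposited a table of estimated counts per gene, not normalized, with the positions of genes on rn6. The submitters' processing notes name STAR 2.6.1d and Partek, and the role of each is not given in the sources used here. In 25.8% of genes a count lay more than 0.01 from a whole number. Counts were rounded and fitted with edgeR 4.0.16 in R 4.3.3 (quasi-likelihood test, TMM scaling, filterByExpr with a minimum count of 10), which kept 13953 of 15172 genes, with Benjamini-Hochberg adjustment over that whole set. Counts had been assumed in planning, and the same test was kept. A call needed adjusted p under 0.05 with a change of 1.5-fold or more. Standard errors were derived from the F statistic. Nothing says that the samples came from separate cultures, so the spread between samples behind the p-values may be technical. Each gene's variance was drawn toward that of other genes, with a median of 10.1 prior and 12.1 total degrees of freedom. The p-values and intervals of fold changes thus rest largely on variance borrowed from other genes. Intervals of counts cover counting error only. Replicates differed by more than counting noise (chi-square per degree of freedom 7.09 in siScramble and 7.03 in siTbk1).

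The members and the lists were chosen with earlier results of these data known. All members and all other listed cyclic nucleotide phosphodiesterase genes are named, and genes of the other lists when called (at most 6 per list). A called gene of the anchors and partners is counted but not reported here. Alternatives were DESeq2 1.42.0, limma-voom (limma 3.58.1), other scalings and filters, glmTreat, a correction for genomic span (loess, span 0.5), a replicate block, a crossed block, and leaving out each sample. The scripts were tested on simulated data. Figures were drawn with matplotlib 3.10.9. GC content of transcripts and protein sequences were not analysed here.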

Additional observations from a re-analysis of the deposited data

How the results depend on the processing

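The comparison was repeated under 13 other settings with all samples and 4 that left out 1 sample. Over the members' fold changes this gave 170 comparisons with the reported values. Of these, 158 kept direction and side of the limits, 2 lost the call, 9 gained one and 1 reversed. Pde4d and Pde8a had no call by both limits, so settings in which they failed the adjusted p alone count as kept. With no fold limit, 3 members rose and 5 fell, 16 and 20 genes of the 4 pathway lists rose and fell, and 3405 and 3459 of all tested genes did. With glmTreat against 1.5-fold, 0 members rose and 0 fell, 0 and 0 pathway genes, and 163 and 101 of all genes. Pde3b and the 5 lower members had an adjusted p under 0.05 in all settings other than glmTreat. The gene length correction reversed Pde2a (−0.058), Pde7b (−0.046) and Pde9a (−0.048), and did so with the replicate block too (−0.060, −0.041 and −0.056).

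Leaving out 1 sample, 0 to 1 members rose (Pde3a, without siScramble 3) and 2 fell, 2 to 5 pathway genes rose and 3 to 7 fell, and 552 to 756 of all genes rose and 574 to 1159 fell. The lone sample of an arm was then assumed to vary like the other arm. Log2 fold changes ranged from −0.062 to 1.504 for Pde3a, −0.10 to 0.30 for Pde7b, −0.021 to 0.12 for Pde2a and −0.13 to 0.22 for Pde9a. Tbk1 ranged from −2.16 to −2.01. Deviations of same-numbered samples had a Pearson correlation of 0.0041 over 13953 genes and −0.39 over the 7945 with a mean log2 CPM of at least 4, so the numbers were not taken as pairs, and the replicate block and the crossed pairing each called 0 members higher and 2 lower. DESeq2 gave no adjusted p for Pde3a. Few counts limited Pde3a, whose interval covers changes past 1.5-fold. Pde4a also had few counts, from 27 to 74. The intervals of Pde4a and Pde8b ended at −0.55 and −0.35, inside the 1.5-fold limit of 0.585 on the log2 scale.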
